A study of Mus musculus with 4 samples.

Results

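The genes examined here form the MHC class I pathway: the classical heavy chains H2-K1 and H2-D1, the light chain B2m, the peptide transporter subunits Tap1 and Tap2, the loading factor Tapbp (tapasin), the inducible proteasome subunits Psmb8 and Psmb9, and the transactivator Nlrc5. They were chosen by gene symbol, and all 9 were found among the 32285 features of every library. Sorted cells of mammary tumors from 4-month-old mice gave 4 single-cell RNA libraries (10x Genomics, 3' chemistry v3). Each library was taken as 1 mouse from its replicate label, since the study's text gives no number of mice for these libraries. All 4 mice were Frmd8fl/fl and carried the PyMT transgene. The study bred littermates of both Cre genotypes, and whether the sequenced mice were littermates of one another was not stated. The mice of replicates 1 and 3 were MMTV-Cre- (called Cre-), and those of replicates 2 and 4 were MMTV-Cre+ (called Cre+). The PyMT transgene drives the tumors, and the MMTV promoter is used to drive Cre in luminal epithelial cells. The strain of the MMTV-Cre mice was not given in the sources used here, while the floxed and PyMT mice were C57BL/6, so the class I haplotype could not be checked.

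Barcodes with at least 1000 unique molecular identifiers (UMIs, each marking 1 captured RNA molecule) and at most 20% mitochondrial UMIs were kept, which left 4922 to 7123 barcodes and 107848230 to 134882211 UMIs per library, with median depths of 12455 to 13072.5 UMIs. Cells were put in a class by UMIs of marker genes that include none of the 9: 12 epithelial genes such as Epcam and Krt8, 10 immune genes such as Ptprc, and 16 stromal genes such as Col1a1 and Pecam1. This gave 2012 to 2976 epithelial cells per library, called tumor cells here although normal epithelium was not split off, 1703 to 3085 immune cells and 250 to 754 stromal cells. Hormone-sensing cells (at least 2 UMIs of at least 2 genes such as Esr1 and Pgr) were 581 of 2332 and 153 of 2012 epithelial cells in Cre- replicates 1 and 3. In Cre+ replicates 2 and 4 they were 358 of 2385 and 45 of 2976. They were counted without thinning. Median depths of the epithelial cells were 23941 and 23694.5 UMIs in Cre- replicates 1 and 3 and 13935 and 12651 UMIs in Cre+ replicates 2 and 4. The study took its hormone-sensing cells of low copy number score as normal. Epcam measured 1332 to 2211 UMIs per 1000000 UMIs of the class (CPM) in tumor cells and 17.0 to 29.3 CPM in immune cells, and Ptprc 2.71 to 3.30 CPM in tumor cells and 360.2 to 648 CPM in immune cells. Frmd8 in tumor cells measured 24.2 and 24.5 CPM in Cre- replicates 1 and 3 and 5.57 and 10.5 CPM in Cre+ replicates 2 and 4, with no overlap of the groups (log2 fold change -1.51 ± 0.41, unadjusted p = 0.0173, edgeR adjusted p = 1.00). In immune cells Frmd8 measured 29.8 and 26.9 CPM in Cre- and 20.9 and 16.1 CPM in Cre+ mice, also without overlap (log2 fold change -0.51 ± 0.18, unadjusted p = 0.0316, edgeR adjusted p = 1.00). Stromal cells had 23.6 and 22.6 CPM of Frmd8 in Cre- and 16.2 and 21.1 CPM in Cre+ mice, without overlap (log2 fold change -0.27 ± 0.17, edgeR unadjusted p = 0.171). Of all genes tested, 15.6%, 18.6% and 23.2% did not overlap with Cre+ lower in tumor, immune and stromal cells. Frmd8 counts from the 3' end need not vanish when inner exons are deleted. Any pair of libraries shared 6 to 16 barcodes. Replicate 4 was deposited with all barcodes and by another program version than the others.

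Class I molecules carry peptides of proteins made inside the cell to its surface, where CD8 T cells read them. The proteasome cuts the proteins, and under interferon-gamma the subunits Psmb8 and Psmb9 replace constitutive ones. Tap1 and Tap2 pump the peptides into the endoplasmic reticulum, tapasin holds an empty heavy chain at the transporter until a peptide fits, and a heavy chain needs B2m to leave for the surface. Nlrc5 acts in the nucleus as a co-activator of class I promoters and of several other genes of the pathway, and it is itself induced by interferon-gamma. Nearly all nucleated cells express class I, at levels that differ widely between cell types, and loss of B2m, of a transporter subunit or of interferon signaling is a known way for tumor cells to escape T cells.

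Apart from B2m on chromosome 2 and Nlrc5 on chromosome 8, the genes lie in the H2 complex of chromosome 17. On GRCm38 (GENCODE M21), Tapbp spans chr17:33915899-33929292 and H2-K1 chr17:33996017-34000347, and Psmb9 (chr17:34181987-34187764), Tap1 (chr17:34187553-34197225), Psmb8 (chr17:34197721-34201454) and Tap2 (chr17:34203527-34216321) follow one another without another member between them. H2-D1 lies at chr17:35262730-35267499, B2m at chr2:122147686-122153083 and Nlrc5 at chr8:94434356-94527272. Psmb9 and Tap1 overlap head to head, and their promoter windows share 275 bases. The last 500 bases of each member, where 3' reads fall, shared no stretch of 90 bases with another annotated gene.

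The promoters of H2-K1, H2-D1, B2m and Tap1 are shown for reference, as RefSeq windows of 300 bases (GRCm38.p6, 5′ to 3′ on the gene's strand) around the start of the gene. They do not stand for a group that changed apart from the other members. Windows were found for 7 of the 9 genes, and Tap2 and Nlrc5 had no entry. Capitals mark, on either strand, the 10-letter NF-kappaB motif (the longest run of capitals in the windows of H2-K1 and H2-D1), the interferon regulatory factor core AANNGAAA, the CREB core TGACG and the CCAAT box. The window of H2-K1 is chr17:34000298-34000597 (minus strand), that of H2-D1 chr17:35262844-35263143, that of B2m chr2:122147437-122147736 and that of Tap1 chr17:34187306-34187605 (all plus strand).
H2-K1: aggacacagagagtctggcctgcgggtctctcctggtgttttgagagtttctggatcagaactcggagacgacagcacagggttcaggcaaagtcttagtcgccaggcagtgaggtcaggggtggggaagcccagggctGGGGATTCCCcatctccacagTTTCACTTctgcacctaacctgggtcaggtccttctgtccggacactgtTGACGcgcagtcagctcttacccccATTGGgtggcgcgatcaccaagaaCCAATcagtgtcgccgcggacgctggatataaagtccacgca
H2-D1: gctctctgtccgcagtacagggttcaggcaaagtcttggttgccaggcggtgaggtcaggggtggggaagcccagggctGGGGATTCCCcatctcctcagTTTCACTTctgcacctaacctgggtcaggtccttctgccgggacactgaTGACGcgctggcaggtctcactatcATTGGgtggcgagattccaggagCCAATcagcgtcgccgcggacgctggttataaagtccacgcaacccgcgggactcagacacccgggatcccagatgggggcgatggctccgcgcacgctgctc
B2m: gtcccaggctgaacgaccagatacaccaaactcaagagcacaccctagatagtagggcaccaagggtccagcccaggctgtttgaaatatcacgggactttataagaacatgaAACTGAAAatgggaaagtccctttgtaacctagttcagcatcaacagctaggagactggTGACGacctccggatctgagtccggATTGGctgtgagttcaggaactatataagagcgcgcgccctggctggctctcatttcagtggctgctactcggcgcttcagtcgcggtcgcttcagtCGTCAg
Tap1: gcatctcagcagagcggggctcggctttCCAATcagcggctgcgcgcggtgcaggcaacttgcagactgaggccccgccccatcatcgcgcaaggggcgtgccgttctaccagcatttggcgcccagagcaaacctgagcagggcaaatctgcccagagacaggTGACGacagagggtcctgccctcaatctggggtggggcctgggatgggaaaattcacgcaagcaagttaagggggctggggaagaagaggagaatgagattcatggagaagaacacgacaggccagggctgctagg
H2-K1 and H2-D1 were identical at 214 of 239 aligned bases, or 89.5%. The NF-kappaB letters stood in both heavy chain windows and in 28 of all 27025 promoter windows, or 0.104%. AANNGAAA stood in the windows of H2-K1, H2-D1 and B2m and in 24.2% of all windows, TGACG in those of H2-K1, H2-D1, B2m, Tap1 and Psmb9 and in 21.0% of all, and CCAAT in 6 of the 7 windows and in 37.9% of all. Psmb8 held none of these letters. The windows of Tap1 and Psmb9 share 275 bases, and their TGACG and CCAAT matches are the same bases read on opposite strands. The matches describe the windows and were not tested as sites.

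Tumor cells were first compared with the immune and stromal cells of the same tumors. Here and below, the values of 4 libraries are given in the order Cre- replicates 1 and 3, then Cre+ replicates 2 and 4. All 9 genes were higher in immune than in tumor cells, a comparison in which 31.2% of the 15944 genes tested were called higher at an adjusted p under 0.05. The estimate for B2m was the largest of the 9. It measured 561, 404, 601 and 864 CPM in tumor cells, and 3287, 2827, 3357 and 3834 CPM in immune cells. The lowest immune value was thus above the highest tumor value, and the 4 libraries fell in the same order in both classes. The log2 fold change was 2.79 ± 0.13 (SE, 4 mice, adjusted p = 1.68e-07, edgeR quasi-likelihood test with mouse as a block).

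The heavy chains differed less. H2-K1 measured 874, 661, 834 and 1025 CPM in tumor cells and 1459.7, 1226, 1515 and 1356 CPM in immune cells, a log2 fold change of 1.03 ± 0.13 (adjusted p = 8.10e-05). H2-D1 measured 843, 617, 728 and 996 CPM in tumor cells and 1888, 1862, 2235 and 2054 CPM in immune cells, a log2 fold change of 1.66 ± 0.16 (adjusted p = 1.42e-05). Neither gene overlapped between the classes. The share of all genes without overlap was counted only between the genotypes, and is not known for comparisons within tumors. In tumor cells the 2 heavy chains stood at nearly the same level, whereas in immune cells H2-D1 was the higher in every library.

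The transactivator and the inducible proteasome subunits were also higher in immune cells, without overlap. Nlrc5, the least abundant of the 9, measured 3.53, 1.47, 2.83 and 5.71 CPM in tumor cells and 21.1, 13.5, 18.8 and 11.04 CPM in immune cells, a log2 fold change of 2.65 ± 0.34 (adjusted p = 0.000101). Psmb9 measured 80.4, 42.0, 53.7 and 39.8 CPM in tumor cells and 179, 169.9, 165 and 233 CPM in immune cells, a log2 fold change of 2.10 ± 0.23 (adjusted p = 3.45e-05). Tumor cells of replicate 1 were the highest of the 4 for Psmb8, Psmb9, Tap2 and Tapbp, and those of replicate 4 the highest for Nlrc5, Tap1, B2m and both heavy chains. Psmb8 measured 389, 421, 396 and 575 CPM in immune cells and was 1.41 ± 0.19 higher than in tumor cells on the log2 scale (adjusted p = 0.000154).

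Among the transport and loading genes, Tap1 measured 38.3, 23.2, 35.1 and 41.2 CPM in tumor cells and 91.9, 72.0, 86.3 and 93.5 CPM in immune cells, a log2 fold change of 1.64 ± 0.10 (adjusted p = 9.59e-07). Its partner Tap2 measured 69.9, 39.9, 54.2 and 32.3 CPM in tumor cells and 65.99, 54.6, 59.3 and 60.3 CPM in immune cells, so that the classes overlapped and replicate 1 went the other way. The fitted change of Tap2 was 0.64 ± 0.16 (adjusted p = 0.00626), and Tapbp was 1.15 ± 0.11 higher in immune cells (adjusted p = 1.78e-05). Tumor cells had more Tap2 than Tap1 UMIs in replicates 1, 2 and 3, and immune cells had more Tap1 than Tap2 UMIs in all 4 libraries. Reads from 3' ends do not grow with transcript length, but capture can differ between genes, so such ratios are compared between classes and not read as ratios of molecules.

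In either direction, 66.3% of all genes were called between immune and tumor cells. The members' median log2 fold change was 1.64, against -0.07 over all genes. Scaling by library size alone moved the median of all genes to -0.36, and Tap2, at 0.33, was then no longer called while the other 8 were. Immune RNA that is not part of the gate (10 genes such as Lyz2 and C1qa) stood in tumor cells at a median of 0.336% to 0.682% of its immune level, with no gene of the list at 0 and a summed level of 152 to 452 CPM against 44507 to 66802 CPM in immune cells. Subtracting immune RNA at that share left 96.6% to 100% of each member's tumor level. Without replicate 4, 9 of the 9 members were again called higher.

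**Figure D1:**
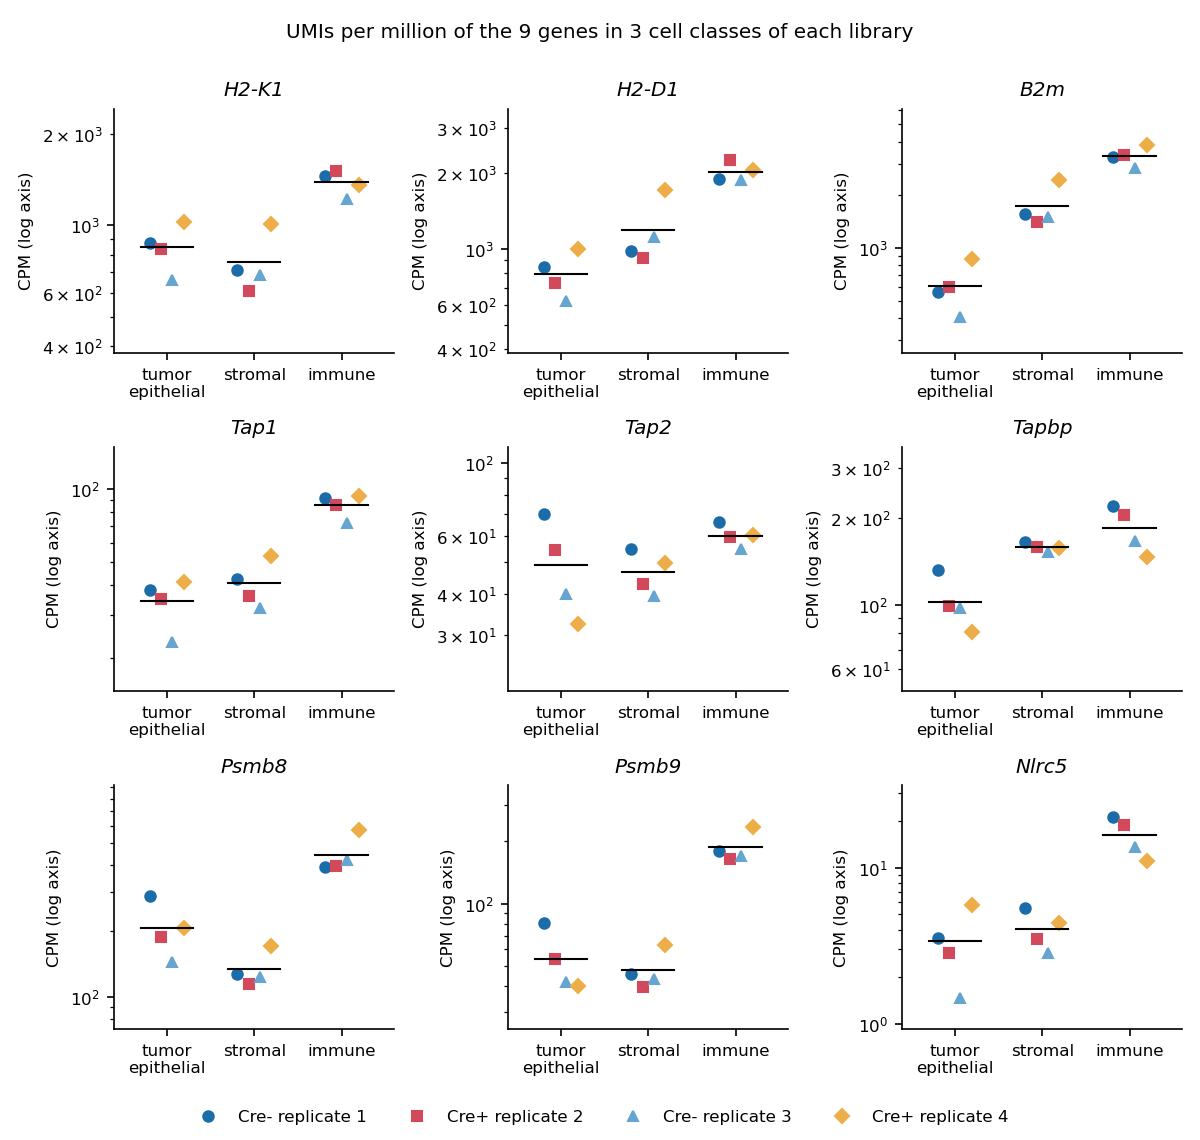
UMIs per 1000000 UMIs (CPM, log axis) of the 9 genes in tumor epithelial, stromal and immune cells, with 1 point per library and a line at the mean of the 4 libraries. The immune points lie above all tumor points for every gene but Tap2, whose highest tumor value, 69.9 CPM, exceeds the highest immune value, 65.99 CPM. The share of all genes without overlap was not counted for these classes.

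In stromal cells, B2m, Tapbp and H2-D1 were higher and Psmb8 lower than in tumor cells. B2m measured 1545, 1499.9, 1400.0 and 2408 CPM in stromal cells, above tumor cells in every library, with a log2 fold change of 1.502 ± 0.13 (adjusted p = 1.01e-05). Tapbp was 0.65 ± 0.11 higher (adjusted p = 0.000878) and H2-D1 0.54 ± 0.15 higher (adjusted p = 0.0129). Psmb8, at 128, 124, 114 and 172 CPM, was lower than in tumor cells, where it measured 288, 144, 189 and 206 CPM, with a log2 fold change of -0.62 ± 0.19 (adjusted p = 0.0172). The other 5 did not pass the test: H2-K1 at -0.18, Tap1 at 0.24 (adjusted p = 0.0621), Tap2 at -0.05, Psmb9 at -0.18 and Nlrc5 at 0.31. Of all genes, 63.8% were called between these classes, 30.9% higher and 32.8% lower in stromal cells, against 3 higher and 1 lower of the 9 members. H2-D1 was no longer called without replicate 3 (0.43) and Psmb8 without replicate 2 (-0.63) or under the cell limits of the study, while Nlrc5 was called higher without replicate 4 (0.65). Tap1 was called higher with DESeq2 (0.33), the strict gate (0.26), the study's cell limits (0.43) and without hormone-sensing cells (0.26).

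All 9 members were also higher in immune than in stromal cells, where 67.3% of all genes were called and 34.9% were called higher in immune cells. Nlrc5 differed by 2.33 ± 0.34 on the log2 scale, Psmb9 by 2.29 ± 0.23 and Psmb8 by 2.04 ± 0.19, whereas B2m differed by 1.29 ± 0.13 and Tapbp by 0.50 ± 0.11. Tap2 (0.38) and Tapbp (0.20) were not called with library sizes alone, nor was Tap2 after thinning to 1000 UMIs (0.53).

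In the sums per class, the ratio of light to heavy chain UMIs was lower in tumor cells than in the other classes. B2m UMIs per UMI of H2-K1 and H2-D1 came to 0.327, 0.316, 0.385 and 0.427 in tumor cells, with a mean of 0.364 ± 0.052 (SD, n = 4). The mean was 0.979 ± 0.104 in immune cells and 0.887 ± 0.038 in stromal cells. T cells, at 0.653 ± 0.048, and NK cells, at 0.608 ± 0.057, had the lowest ratios of the other cell types, and these too were above the tumor cells of the same library in 4 of 4 libraries. An exact two-sided sign-flip permutation test over 4 mice gave p = 0.125 for each, the smallest p that 4 mice allow. Deep cells weigh most in these sums. From tumor cells of 2000 to 5000 UMIs to those of 30000 or more, both heavy chains rose in 4 of 4 libraries. B2m fell in all but replicate 3. In replicate 4, B2m, H2-K1 and H2-D1 measured 900, 733 and 579 CPM in the shallower cells and 816, 1089 and 1065 CPM in the deeper ones. In cells thinned to 2000 UMIs, immune and stromal cells averaged more B2m than H2-K1 or H2-D1 UMIs in every library. Tumor cells averaged fewer B2m UMIs than either in all but replicate 4. There the tumor means were 1.82 UMIs of B2m, 1.74 of H2-K1 and 1.67 of H2-D1. The immune means of that library were 7.81, 2.88 and 4.28 UMIs. No test of the ratio was run at equal depth, and T and NK cells were not compared with tumor cells of equal depth. H2-K1 UMIs per H2-D1 UMI came to 1.07 ± 0.053 in tumor cells, 0.692 ± 0.055 in immune cells and 0.650 ± 0.059 in stromal cells, below the tumor cells in 4 of 4 libraries (exact p = 0.125 for both). T cells, at 1.15 ± 0.052, and NK cells, at 1.07 ± 0.094, were not below tumor cells as a group, being lower in 1 and in 3 of 4 libraries (exact p = 0.25 and 1).

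The proteasome subunits were summed by type, the inducible Psmb8, Psmb9 and Psmb10 over the constitutive Psmb5, Psmb6 and Psmb7 that they replace. The ratio was 0.558, 0.328, 0.436 and 0.307 in tumor cells, with a mean of 0.407 ± 0.115 (SD, n = 4), against 1.42 ± 0.143 in immune cells and 0.550 ± 0.088 in stromal cells. It was above the tumor value in 4 of 4 libraries for immune cells and in 3 of 4 for stromal cells (exact p = 0.125 and 0.25). Dendritic cells, which present antigen to T cells, had the highest mean ratio of the cell types, 3.61 ± 0.300, followed by T cells at 2.64 ± 0.279.

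Within the immune and stromal classes, cells were typed by further marker UMIs and each type was compared with tumor cells in 1 model. All 9 members were higher in dendritic cells, T cells and NK cells, where 51.9%, 59% and 48.6% of the 13691 genes tested were called and 21.7%, 25.6% and 19.7% were called higher. Macrophages, the most numerous type with 1027 to 2432 cells per library, had 8 higher, with 62.3% of genes called and 29.7% called higher, and Tap2 stood at 0.39 (adjusted p = 0.0810). Neutrophils had 6 higher (58.9% of genes called, 21.5% higher), endothelial cells 6 (54.1% called, 24.6% higher) and B cells, summed in 2 libraries only, 5 (24.5% called, 9.79% higher). Fibroblasts had 2 higher and 2 lower, where 60.2% of genes were called, 29.6% higher and 30.6% lower. Pericytes had 1 higher (B2m at 1.52) and 1 lower (H2-K1 at -0.54), where 49% were called, 22.2% higher and 26.8% lower. Neutrophils had median depths of 3471 to 3815.5 UMIs, well under the library medians. Without replicate 2, B cells had 2 members higher, and without replicate 1, 2 or 3 no member was lower in pericytes.

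Dendritic cells had the highest mean levels of the processing and transport genes. Psmb9 measured 705, 694, 688 and 849 CPM in dendritic cells, a log2 fold change over tumor cells of 4.01, and the next type, T cells at 264.9 to 342 CPM, did not overlap them. Tap1, at 195 to 267 CPM in dendritic cells, Tap2, at 135 to 182 CPM, and Psmb8, at 1074 to 1298 CPM, likewise did not overlap the T cells that followed, which reached 141, 126 and 896 CPM. Each library held 32 to 61 dendritic cells, so that the dendritic values rest on few cells.

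T and NK cells had the highest mean levels of H2-K1, and T cells that of Nlrc5. H2-K1 measured 2775, 2666, 2788 and 2323 CPM in T cells and 3027, 2555, 3279 and 2031 CPM in NK cells. The T and NK ranges overlapped each other, and both lay above those of all other types, of which B cells came next at 1277 to 1579 CPM. Nlrc5 measured 65.0, 55.9, 71.9 and 39.2 CPM in T cells, a log2 fold change of 4.21 over tumor cells, but its range overlapped those of NK cells, at 9.19 to 65.3 CPM in 31 to 117 cells, and of dendritic cells, at 11.3 to 41.9 CPM.

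B2m had another order, with macrophages first at 3442, 2875, 3446 and 4029.8 CPM and a mean of 3448 ± 471 (SD, n = 4). T cells (3209 ± 239) and NK cells (3171 ± 502) overlapped macrophages. Further down, each type overlapped the next until fibroblasts, at 1477 ± 107 CPM, which did not overlap tumor cells at 607.6 ± 191 CPM. Tumor cells were thus last of 10 types for B2m and for H2-D1, though for H2-D1 their range overlapped that of fibroblasts. For H2-K1 tumor cells stood between endothelial cells and neutrophils, with ranges that overlapped those of endothelial cells, neutrophils, fibroblasts and pericytes.

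Neutrophils separated the 2 heavy chains. H2-D1 measured 1885, 1944, 2620.0 and 2575 CPM in neutrophils and was 1.64 above tumor cells on the log2 scale (adjusted p = 2.79e-08), whereas H2-K1 measured 717, 684, 747 and 869 CPM and differed by -0.01 (adjusted p = 0.977). The ratio of H2-K1 to H2-D1 UMIs in neutrophils was 0.339 ± 0.040 (SD, n = 4), below tumor cells in 4 of 4 libraries (exact p = 0.125). Among stromal types, fibroblasts were lower than tumor cells for Psmb8 (-0.88) and Psmb9 (-0.64) and higher for B2m (1.43) and Tapbp (0.88). In pericytes of replicate 4, 35 cells, B2m reached 3574 CPM against 1269.6 to 1461 CPM in the other libraries, and endothelial cells of replicate 4 reached 3240.1 CPM against 1290.1 to 1920.3 CPM, while fibroblasts of replicate 4 did not stand apart.

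**Figure D2:**
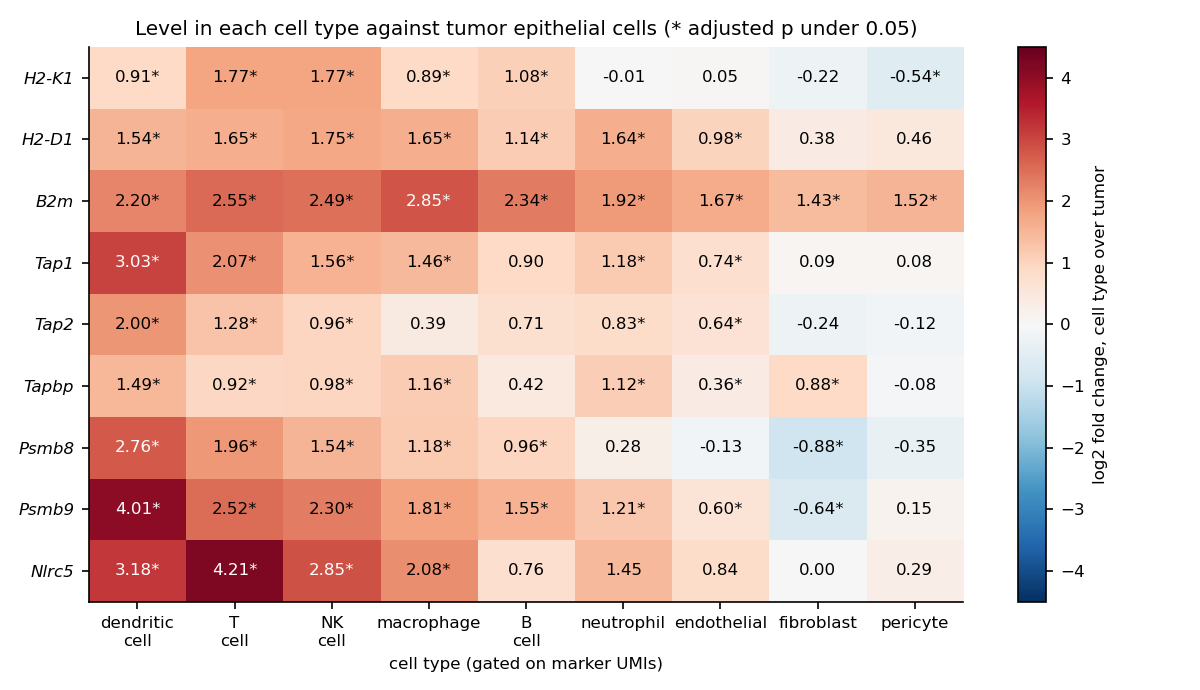
Log2 fold changes of the 9 genes in 9 gated cell types against tumor epithelial cells, from 1 edgeR model with mouse as a block (color and number), with a star at an adjusted p under 0.05. Dendritic, T and NK cells carry stars for all 9 genes, and B2m carries a star in every cell type, from 1.43 in fibroblasts to 2.85 in macrophages.

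The other genes of the pathway were counted from lists chosen together with the members. Of all genes, 31.2% were called higher and 35.1% lower in immune than in tumor cells. Of 12 tested heavy chains outside the classical pair, 9 were higher and 1 lower in immune than in tumor cells: H2-Q7, at 1.82 ± 0.32, H2-T22, at 0.41 ± 0.14, and Fcgrt, the neonatal Fc receptor, at 4.18 ± 0.33, were among the higher ones, and H2-T23, which presents leader peptides to NK receptors, stood at 0.02 ± 0.12. The lower one, named after its value was seen, was Cd1d1, which presents lipids, at -1.32 ± 0.15. H2-Q6 and H2-Q7 are close copies whose reads could be split by the counting. The 5 chaperone and trimming genes were all higher in immune cells, among them Calr (0.59 ± 0.17), Canx (0.50 ± 0.08) and Pdia3 (0.55 ± 0.17), which fold and load heavy chains, and Erap1 (0.94 ± 0.11), which trims peptides.

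All 3 further inducible proteasome genes were higher in immune than in tumor cells, Psmb10 by 1.62 ± 0.22, Psme1 by 0.91 ± 0.16 and Psme2 by 0.74 ± 0.14. Of 5 constitutive ones 1 was higher and 2 were lower (Psmb6 at -0.40 ± 0.13 and Psme4 at -0.72 ± 0.14), beside 31.2% higher and 35.1% lower of all genes. In the list of regulators and interferon signaling, 18 of 22 were higher and 1 was lower. Ifngr1, a chain of the interferon-gamma receptor, was 3.38 ± 0.10 higher, the kinase Jak1 1.19 ± 0.12 and the type I receptor chain Ifnar2 1.71 ± 0.23, and Stat3 differed by -0.60 ± 0.16. In stromal against tumor cells, 13 of these 22 regulators were higher and 4 lower, beside 30.9% higher and 32.8% lower of all genes. Of the proteasome genes in that comparison, 0 of 3 inducible and activator ones were higher and 1 was lower, and 5 of 5 constitutive ones were lower. The median of the regulators was 0.80 there, against -0.07 for all genes.

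Cells of a tumor can also differ from one another. To compare tumor cells at equal depth, each was thinned to 2000 UMIs, which kept 2220, 1929, 2320 and 2615 tumor cells and left out 112, 83, 65 and 361 shallower ones. H2-K1, H2-D1 and B2m together gave a median of 4, 2, 3 and 4 UMIs per tumor cell, with a 90th percentile of 10, 7, 10 and 10. At least 1 UMI of the 3 genes was found in 90.8% (95% exact binomial interval 89.5 to 92.0), 84.3% (82.6 to 85.9), 89.4% (88.1 to 90.7) and 93.0% (92.0 to 94.0) of tumor cells. The intervals cover counting error only. The rest, 9.19%, 15.7%, 10.6% and 6.96% of tumor cells, had none, where a Poisson distribution of the same mean gives 0.940%, 4.12%, 1.26% and 0.537%.

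In the immune cells of the same libraries, the share without a UMI of the 3 genes was 0.0636%, 0.200%, 0.0513% and 0.0710%, and the median was 12 to 14 UMIs. Stromal cells were between, with 3.16%, 3.11%, 2.89% and 1.30% without a UMI and a median of 5 to 9 UMIs. These shares too were above those of a Poisson distribution of the same mean. That gives at most 0.000247% in immune cells and 0.0891%, 0.114%, 0.205% and 0.00259% in stromal cells. Free RNA can give UMIs to cells that do not express a gene, and no cell type here lacks class I. As a scale, the macrophage genes Lyz2 and C1qa had a UMI in 6.17% to 13.0% and in 2.703% to 6.03% of the thinned tumor cells. In replicate 4, the barcodes with at most 100 UMIs, which mostly hold free RNA, had 1809.7 CPM of B2m, 1337 CPM of H2-D1 and 1007 CPM of H2-K1, above the tumor cells of that library for B2m and H2-D1. The members other than these 3 were above them too, at 133 against 39.8 CPM for Psmb9, 386 against 206 CPM for Psmb8 and 11.8 against 5.71 CPM for Nlrc5. Tap1 stood at 51.8 against 41.2 CPM, Tapbp at 86.7 against 80.3 CPM and Tap2 at 33.7 against 32.3 CPM. How much free RNA adds to the UMIs of the members in a single tumor cell was not tested.

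The spread was expressed as the coefficient of variation that remains after Poisson counting variance is removed. For the sum of H2-K1, H2-D1 and B2m it was 0.772, 0.890, 0.899 and 0.637 in tumor cells, with a mean of 0.799 ± 0.123 (SD, n = 4). In immune cells it was 0.408 to 0.483, with no overlap with tumor cells. Stromal cells, at 0.562, 0.604, 0.536 and 0.705, overlapped the tumor range and were above the tumor cells in replicate 4. B2m alone came to 1.04 ± 0.173 in tumor cells. A B2m UMI was found in 57.5%, 44.8%, 58.1% and 71.0% of tumor cells and in 97.8% to 99.0% of immune cells. Among the 2656 to 2935 genes with a mean of at least 0.1 UMI per tumor cell, 86.4%, 92.4%, 89.6% and 65.4% had a smaller spread than B2m. H2-K1 (0.849 ± 0.092) and Psmb8 (0.791 ± 0.142) spread less than B2m on average. For Tap1, Tap2, Psmb9 and Nlrc5, at most 12.8% of tumor cells of any library had a UMI at this depth, which is too sparse to order their spread.

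**Figure D3:**
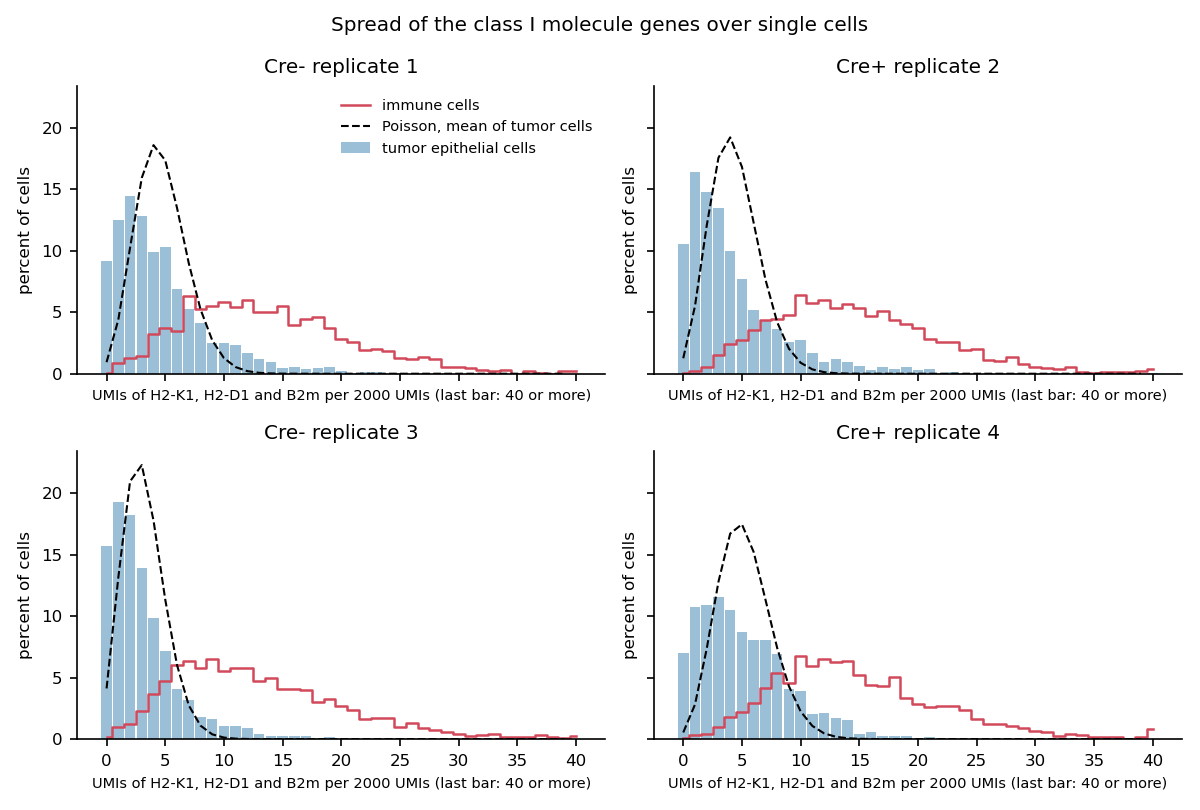
Share of cells (percent) by the UMIs of H2-K1, H2-D1 and B2m after thinning to 2000 UMIs per cell, 1 panel per library: bars for tumor cells, red line for immune cells, dashed line for a Poisson distribution with the mean of the tumor cells. The tumor bars exceed the dashed line at 0, where they reach 6.96% to 15.7%, and again above 10 UMIs.

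Within a library, the 3 genes of the molecule varied together, and the correlations of the others with them were low. Across 2220 tumor cells of replicate 1, Pearson's r of H2-K1 was 0.40 with H2-D1, 0.39 with B2m and 0.10 with Psmb8. In replicate 4 these values were 0.41, 0.26 and 0.14. Tap1 averaged 0.043 to 0.080 and Nlrc5 0.0021 to 0.011 UMIs per thinned tumor cell, against 0.848 to 1.82 for B2m. Sparse counts keep r low, so a weak link cannot be told from sparse counts here. The 10 genes most like the sum of the 3, by the lowest r over the 4 libraries among 2186 genes, were Ly6e (0.21), Itm2b (0.18), Cd9 (0.16), Bst2 (0.16), Psmb8 (0.14), H2-T23 (0.14), Serinc3 (0.13), Spint2 (0.11), Epcam (0.11) and Ctsd (0.11). These correlations are across cells that share a library and its depth, and are given as a description. The sum correlated with the total UMIs of the full cell at 0.040 to 0.204 and with the immune RNA list at -0.028 to 0.013. UMIs of that list per cell were 0.327, 0.869, 1.44 and 1.33 in the 266, 229, 260 and 357 cells with the highest sums. In the 482, 303, 245 and 463 cells with the lowest sums they were 0.373, 0.488, 0.739 and 0.706. The list was thus higher in the high-sum cells of replicates 2, 3 and 4 and lower in those of replicate 1. Its part in the sum of single cells was not tested. Over 38 sums of cell types and libraries, likeness was measured otherwise, as 1 Pearson's r of log2(CPM + 1) with the mean of the 3. Such values cannot be set against those across single cells. Among 12482 genes, this likeness was highest for Ifi206 (0.88), Ptpn22 (0.86) and AI662270 (0.84), followed by Spn, Sp100, Sh3bgrl3, Il2rg, Ptpn7, Cdc42se2 and Pde3b at 0.82 to 0.83. Members came to 0.76 for Tap1, 0.73 for Psmb9, 0.72 for Psmb8, 0.67 for Nlrc5, 0.51 for Tapbp and 0.46 for Tap2.

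Tumor cells were then split by genes that are not members. Cells with at least 3 UMIs of at least 2 interferon-gamma-inducible GTPases after thinning to 2000 UMIs (the Gbp and Irg families, which act against pathogens inside cells) made up 2.92%, 1.39%, 2.22% and 3.56% of tumor cells, or 68, 28, 53 and 106 cells, and were compared with cells that had none. Tap1 measured 138, 155, 152 and 115 CPM in the high cells and 32.0, 20.4, 30.2 and 31.7 CPM in the others, without overlap, with a log2 fold change of 2.28 ± 0.17 (adjusted p = 8.96e-05, edgeR with mouse as a block). Nlrc5 measured 18.9, 14.2, 16.4 and 15.5 CPM against 2.67, 1.15, 2.37 and 4.79 CPM, again without overlap, with a log2 fold change of 2.61 ± 0.31 (adjusted p = 1.77e-05). How many of all genes did not overlap between these cells was not counted. For Tap1, the high tumor cells were above the immune class of the same library in 4 of 4 libraries.

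Of the 9 members, 8 were higher in the GTPase-high tumor cells, where 2.02% of 14105 genes were called and 1.72% were called higher. Psmb9 rose by 1.67 ± 0.13 (adjusted p = 4.77e-06), Psmb8 by 1.41 ± 0.19 (0.0310), Tapbp by 1.23 ± 0.09 (2.24e-08) and Tap2 by 1.22 ± 0.15 (0.000561). The heavy chains rose least, H2-K1 by 0.82 ± 0.09 (4.50e-05) and H2-D1 by 0.77 ± 0.10 (0.000133). B2m measured 1189.9, 1328, 1441 and 1159 CPM in the high cells and 484, 377, 523 and 799.9 CPM in the others. B2m did not overlap and was higher in 4 of 4 libraries, but its fitted change of 1.28 ± 0.27 had an adjusted p of 0.293, and it was called with DESeq2 (1.30), after thinning to 1000 UMIs (1.06), under the cell limits of the study (1.16) and without replicate 4 (1.53). Psmb8 was no longer called in GTPase-high cells without replicate 3 (1.28) or 4 (1.45), nor Tap2 after thinning to 1000 UMIs (1.17). The immune RNA list summed to 320.2, 149, 284 and 218 CPM in the high cells and 150.4, 170.1, 376 and 419 CPM in the others, so that it was higher in the high cells of replicate 1 only. Median depths of the high and other cells were 24274.5 and 26929 UMIs in replicate 1 and 22103.5 and 24847.5 in replicate 3. They were 15520 and 14812 UMIs in replicate 2 and 23311 and 14184 in replicate 4.

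Cells high in type I interferon-stimulated genes (Ifit, Oasl, Mx1 and the like) made up 5.96%, 2.88%, 4.99% and 9.04% of tumor cells. Of the 9, 8 were again higher, against 2.71% of 14200 genes called and 2.01% called higher. Nlrc5 rose by 2.23 ± 0.24 (adjusted p = 0.000170), Tap1 by 1.97 ± 0.17 (0.00400), Psmb9 by 1.41 ± 0.17 (0.0156) and Psmb8 by 1.30 ± 0.17 (0.0292). The heavy chains rose by 0.73 ± 0.08 and 0.69 ± 0.07 and Tapbp and Tap2 by 1.10 ± 0.07 and 1.00 ± 0.12. B2m measured 1115, 1189.0, 1166 and 1185 CPM in the high cells and 476, 353, 542 and 755 CPM in the others, and its change of 1.21 ± 0.20 had an adjusted p of 0.0917. B2m was called in type I interferon-high cells with DESeq2 (1.22), after thinning to 1000 UMIs (1.19) and without replicate 3 (1.02) or 4 (1.38). Psmb8 lost its call in these cells without a filter on low counts (1.28) and without replicate 2 (1.28) or 4 (1.24), Psmb9 without the filter (1.39) and without replicate 2 (1.44) or 3 (1.34), and Tap2 after thinning to 1000 UMIs (0.79). The SD of B2m over the 4 libraries was 33.8 CPM in the high cells and 168 CPM in the others. The immune list was higher in the high cells of replicates 1 and 4 and lower in those of replicates 2 and 3. Median depths of the high and other cells were 24628 and 26946 UMIs in replicate 1 and 22246.5 and 24876 in replicate 3. They were 15283 and 15143 UMIs in replicate 2 and 19234 and 14475.5 in replicate 4. The 2 sets of high cells can share cells, and each fit used the same libraries, so the 2 fits are not independent. Of 9 type I interferon-stimulated genes tested, 6 were higher in GTPase-high cells, with a median log2 fold change of 4.89. Of 9 GTPases tested, 8 were higher in type I interferon-high cells, with a median of 3.48. Over all genes, 1.72% and 2.01% were called higher there. Without the mouse as a block, 5 of the 9 members were called in GTPase-high cells and 2 in type I interferon-high cells.

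Among the pathway lists, the 3 further inducible proteasome genes were higher in both sets of high tumor cells, with Psmb10 at 1.30 ± 0.09 in GTPase-high cells, and 0 of 5 constitutive ones were called in either. Of 20 tested regulators 6 were higher in GTPase-high cells. Over all genes, the share called higher was 1.72% in GTPase-high cells and 2.01% in type I interferon-high cells. Named after their values were seen, they included the interferon signal transducers Stat2 (2.5997 ± 0.18) and Irf9 (1.22 ± 0.14), the factors Irf1 (0.68 ± 0.11) and Irf2 (0.70 ± 0.12), and the feedback inhibitor Socs1 (1.16 ± 0.23). H2-T22 (1.67 ± 0.10) and H2-T23 (0.95 ± 0.09) were the 2 of 11 further heavy chains called, and the receptor chain Ifngr1 stood at 0.09 ± 0.14. Of the loading genes, Erap1 (0.67 ± 0.13) and Tapbpl (1.09 ± 0.16) were called, and Calr, Canx and Pdia3 stood at 0.03 to 0.13.

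Cycling tumor cells (at least 3 UMIs of at least 2 genes such as Mki67 and Top2a) were 91, 142, 79 and 278 cells, and were compared with tumor cells that had none. Of the members, 4 were lower and 1 was higher, where 40.8% of 14259 genes were called, 21.2% higher and 19.6% lower. Tap2 fell by 0.74 ± 0.16 (adjusted p = 0.00594), B2m by 0.45 ± 0.12 (0.0155), Tapbp by 0.45 ± 0.09 (0.00435) and H2-K1 by 0.35 ± 0.11 (0.0322). Median depths of the cycling and other cells were 56951 and 24331 UMIs in replicate 1, 31808.5 and 24021 in replicate 3, 27074 and 14048 in replicate 2, and 11514 and 16791 in replicate 4. The part of depth was tested only by thinning and by limits on cells (at least 5000 UMIs, or the study's limits). H2-K1 went the other way in replicate 2, with 866 CPM in cycling and 845 CPM in other cells. Psmb9 rose by 0.64 ± 0.12 (0.00301), and 4 of 5 constitutive proteasome genes rose with it, among them Psmb5 by 0.59 ± 0.10. Of 20 regulators, 1 was higher and 12 were lower, among them Stat3 at -0.77 ± 0.12 and Ifngr1 at -0.73 ± 0.16. In cycling cells, B2m was no longer called without replicate 1 (-0.35) or 3 (-0.46), and H2-K1 without replicate 1 (-0.27), 3 (-0.35) or 4 (-0.29). H2-D1 gained a lower call without a filter on low counts (-0.32), after thinning to 1000 UMIs (-0.58) and without replicate 2 (-0.36). Under the cell limits of the study, H2-D1 (-0.90), Tap1 (-1.14) and Nlrc5 (-2.04) were called lower. Without the mouse as a block 0 members were called, and Psmb9 was not called after thinning to 1000 UMIs. Tumor cells with basal genes such as Krt5 and Krt14, compared in the 3 libraries that held at least 20 of them, had 0 of 9 members called by edgeR (2 at an unadjusted p under 0.05, Tapbp at 0.35 and Psmb9 at -0.48), where 6.78% of genes were called, 3.66% higher and 3.12% lower. The immune RNA list summed to 329, 804 and 1424 CPM in the basal cells of replicates 3, 2 and 4 and to 165, 432 and 301 CPM in the cells without basal genes, and its part in the values was not tested.

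**Figure D4:**
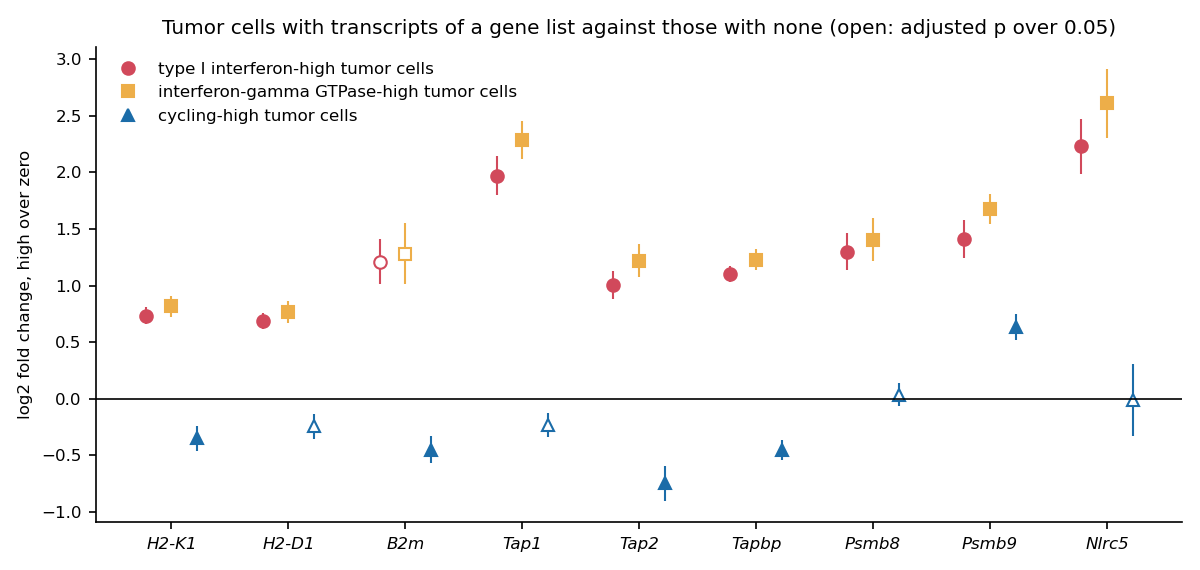
Log2 fold changes of the 9 genes in tumor cells with transcripts of a gene list against tumor cells with none, as estimate and SE (bars) from edgeR with mouse as a block over 4 libraries, with open symbols at an adjusted p over 0.05. Both interferon sets lie above 0 for all 9 genes, highest for Nlrc5 at 2.23 and 2.61, and the filled symbols of the cycling set are below 0 for Tap2, Tapbp, B2m and H2-K1 and above 0 for Psmb9.

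Finally, Cre+ and Cre- tumors were compared, the comparison of the study, with 2 mice in each group. In tumor cells 0 of 16196 genes (0%) had an adjusted p under 0.05 in the edgeR test, 397 had an unadjusted p under 0.05, and DESeq2 called 71, with 0 members in any of these counts. B2m was the member nearest to a call in tumor cells, at 561 and 404 CPM in Cre- and 601 and 864 CPM in Cre+ mice. The groups did not overlap, as for 12.6% of all tested genes with Cre+ higher and 15.6% with Cre+ lower, and the log2 fold change was 0.67 ± 0.34 (unadjusted p = 0.108, adjusted p = 1.00). Without replicate 4 the change of B2m was 0.27, and without replicate 2 it was 0.98.

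H2-K1 in tumor cells measured 874 and 661 CPM in Cre- and 834 and 1025 CPM in Cre+ mice, and the groups overlapped, with a log2 fold change of 0.34 ± 0.28 (unadjusted p = 0.281). H2-D1 differed by 0.31 ± 0.32, Tap1 by 0.37 ± 0.32 and Nlrc5 by 0.86 ± 0.69, and the groups overlapped for each of them, while Tap2 (-0.31 ± 0.37), Tapbp (-0.31 ± 0.23), Psmb8 (-0.07 ± 0.39) and Psmb9 (-0.34 ± 0.36) had estimates below 0. The median over the 9 was 0.31 with all libraries, -0.05 without replicate 4 and 0.56 without replicate 2. No pathway list had a member called, and the medians of the GTPases and of the type I interferon genes were 0.84 and 0.99 in tumor cells. In immune cells, stromal cells and macrophages the GTPase medians were 0.44, 0.47 and 0.64, and the type I interferon medians 1.30, 1.28 and 1.45. Over all genes the median was 0.017 in tumor cells, 0.0059 in immune cells, 0.0022 in stromal cells and 0.021 in macrophages. These classes come from the same mice and macrophages are part of the immune class, so the values are not independent. The list medians were taken with all libraries only. The difference of the genotype effects between tumor and immune cells had medians of 0.52 for the GTPases and -0.0068 for the type I interferon genes.

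In immune cells the estimates ran from -0.12 for Nlrc5 to 0.38 for Psmb8, with 0 of 13876 genes called by edgeR, 318 at an unadjusted p under 0.05 and 24 called by DESeq2, of which 0 were members. B2m and H2-D1 did not overlap between the genotypes there, with Cre+ higher. H2-D1 measured 1888 and 1862 CPM in Cre- and 2235 and 2054 CPM in Cre+ mice, a log2 fold change of 0.30 ± 0.23, and B2m differed by 0.35 ± 0.26. Of all genes, 5.48% did not overlap with Cre+ higher in immune cells. Without replicate 2, 1383 genes were called in immune cells and 1318 in macrophages, with 1 member in immune cells (Psmb9 at 0.61), whereas without replicate 4 the counts were 216 and 110 genes. In those fits the lone Cre+ library is assumed to vary like the others.

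In stromal cells and in macrophages 0 genes were called by edgeR (741 of 13906 and 231 of 13050 at an unadjusted p under 0.05, and 63 and 12 called by DESeq2), again with 0 members in each count. The difference of the genotype effects between tumor and immune cells was tested as an interaction, and 0 of 15944 genes were called (540 at an unadjusted p under 0.05, 20 called by DESeq2, 0 members in each). It was 0.28 ± 0.25 for B2m (unadjusted p = 0.305) and 0.98 ± 0.60 for Nlrc5 (unadjusted p = 0.145). Spread and shares among tumor cells gave exact permutation p-values of 0.333 to 1 between the genotypes, where 0.333 is the smallest that 2 against 2 mice allow. The share of tumor cells with a B2m UMI was 51.1% ± 8.97 (SD, n = 2) in Cre- and 64.5% ± 9.16 in Cre+ mice (exact p = 0.333).

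**Figure D5:**
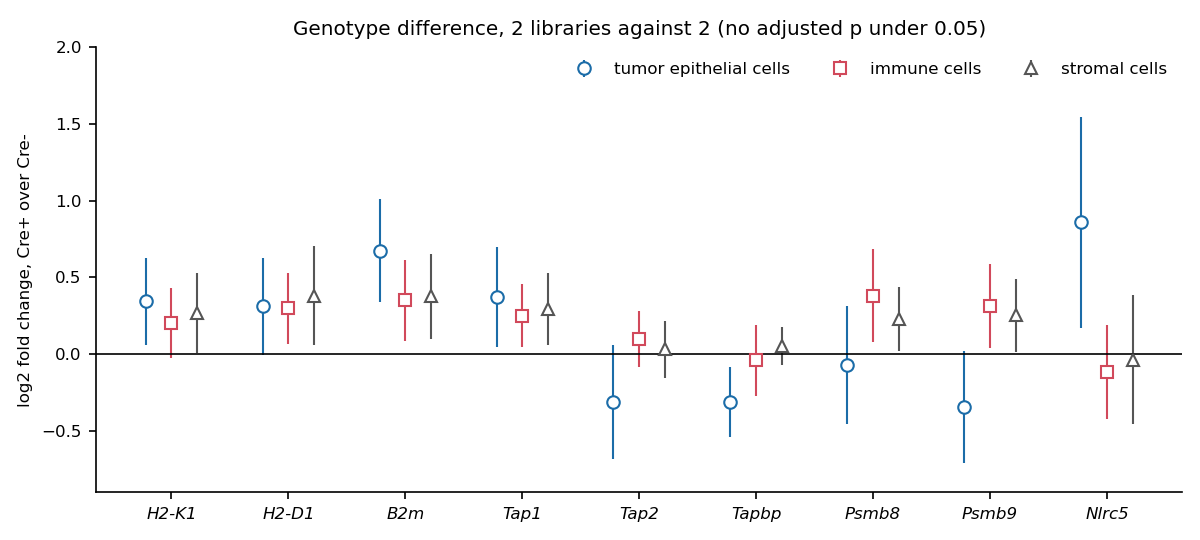
Log2 fold changes of the 9 genes between Cre+ and Cre- mice in tumor epithelial, immune and stromal cells, as estimate and SE (bars) from edgeR, 2 libraries against 2. All symbols are open because no adjusted p is under 0.05, and the widest bar belongs to Nlrc5 in tumor cells, 0.86 ± 0.69.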

How the data were processed

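Single-cell libraries of 4 mice, 2 Cre- and 2 Cre+, were deposited by the authors as UMI counts per gene and barcode, with no normalization. The file headers name Cell Ranger 6.1.2 for replicates 1 to 3, which hold filtered barcodes of at least 500 UMIs, and Cell Ranger 4 for replicate 4, which holds all barcodes. Replicate 4 is 1 of the 2 Cre+ libraries, and the other was deposited as the Cre- libraries were. The submitters' notes name the build hg38 for mouse genes, which was not resolved here, so no coordinate was taken from the counting, and positions are those of GRCm38. GENCODE M21 and RefSeq gave positions and promoters.

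Barcodes with at least 1000 UMIs and at most 20% mitochondrial UMIs were put in a class by at least 5 UMIs of at least 2 of its marker genes and at least 80% of the marker UMIs, and in a cell type by at least 3 UMIs of at least 2 genes and at least 70%. No doublet caller was run. Cells whose top class held under 80% of the marker UMIs stayed outside the classes. Cells at or above that share could still hold marker UMIs of other classes, so doublets can remain. Counts were summed per library and class, or per cell type with at least 20 cells, and tested with edgeR 4.0.16 in R 4.3.3 (quasi-likelihood, TMM, filterByExpr, Benjamini-Hochberg over all genes tested, threshold 0.05), without the marker genes in class contrasts. Standard errors are those of the log2 fold change. The mouse was a block in contrasts within tumors, since classes of 1 library come from 1 mouse, and the genotypes were compared as 2 against 2 mice without one. Each library was taken as 1 mouse, so the spread between libraries holds both animals and library preparation. Single cells were thinned to 2000 UMIs with Python 3.11.15, numpy 2.4.6 and pandas 2.3.3, and exact intervals and permutation tests used scipy 1.17.1. The fits were tested on simulated data. Alternatives were DESeq2 1.42.0, other scaling, filters, gates, cell limits (200 to 5000 genes and under 30000 UMIs, the ranges that the study's methods name as excluded, read here as those kept), depths and left-out replicates.

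The 9 members are always named. Of each pathway list, values are given for up to 4 genes with the highest counts, and exceptions are marked. The members and lists were chosen with earlier results of these data known. The values of 1 gene of these lists are not reported here.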

Additional observations from a re-analysis of the deposited data

Results flagged for a closer look

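In groups of 4 libraries, the gap of the highest or lowest value to its nearest neighbor, divided by the range, was compared with Dixon's 95% critical value. Of 46 groups, 2 were past it, where chance gives about 1 in 20. B2m in stromal cells of Cre+ replicate 4 measured 2408 CPM, against 1400.0 to 1545 CPM in the other 3 libraries. The ratio of H2-K1 to H2-D1 UMIs in immune cells of Cre- replicate 1 was 0.773, against 0.658 to 0.678 in the others. The causes were not tested.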

How the results depend on the processing

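Member counts between the 3 classes kept within 1.5 times of their values in every alternative except those for stromal cells given here. Thinning to 1000 UMIs per cell lowered the genes called to 6600 (immune against tumor), 5670 (immune against stromal), 5260 (stromal against tumor), 1904 (cycling), 124 (type I interferon), 115 (GTPase) and 227 (basal), with 0 members higher in cycling cells. It gave 1 and 7 genotype calls in immune and stromal cells. Under the study's cell limits 0 members were lower in stromal cells, 7 were lower in cycling cells, and 242 genes were called for type I interferon. DESeq2 called 71, 24, 63 and 12 genes between the genotypes in tumor, immune, stromal cells and macrophages and 20 in the interaction, and without a filter edgeR called 11, 66 and 2 in the latter 3 classes and 1699 in the basal contrast. In pericytes, DESeq2 and scaling without TMM both gave 2 members higher and 0 lower. The spread of Psmb8 was 0.972 at 1000 UMIs per cell.

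Without the replicate block, that is without pairing by mouse, the genes called fell to 87 (type I interferon, 2 members higher), 103 (GTPase, 5 members higher), 2564 (cycling, 0 members higher and 0 lower) and 107 (basal). In the class contrasts the block left the member counts within 1.5 times. The genotypes share no replicate numbers, so no pairing between them was possible.

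Leaving out each replicate in turn gave 0 to 1 members lower in stromal than in tumor cells, 0 to 1383 genes and 0 to 1 members between the genotypes in immune cells, 0 to 1318 genes and 0 to 2 members (the most without replicate 2) in macrophages, 0 to 10 genes in stromal and 0 to 16 in tumor cells. B cells had 1266 to 3106 genes and 2 to 5 members higher, the lowest without replicates 4 and 2. Fibroblasts had 1 to 2 members lower, the fewest without replicate 1. Pericytes had 1 to 3 higher and 0 to 2 lower, with 3 higher without replicate 1. Cycling cells had 2 to 5 lower, the fewest without replicate 1 or 3, and type I interferon 256 to 384 genes.

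Some differences that had not passed the test changed sign. Between stromal and tumor cells, H2-K1 became 0.026 (study limits), Psmb9 0.26 (study limits), 0.19 (thinned to 1000 UMIs), 0.020 (without hormone-sensing cells) and -0.39 to 0.071 (replicates left out), and Tap2 0.041 (DESeq2), 0.22 (study limits), 0.30 (thinned), 0.14 (without hormone-sensing cells) and -0.21 to 0.076 (replicates left out). Between the genotypes in immune cells, Tap2 became -0.011 without TMM and -0.21 when thinned, and with replicates left out Nlrc5 ran from -0.44 to 0.19, Psmb8 from -0.0015 to 0.69, Psmb9 from -0.046 to 0.61 and Tapbp from -0.21 to 0.13. In tumor cells, Psmb8 became 0.27 (study limits), 0.091 (without hormone-sensing cells) and -0.48 to 0.49 (replicates left out), Psmb9 0.00036 and -0.74 to 0.18, Tap2 -0.66 to 0.13 and H2-D1 -0.047 to 0.59. In cycling cells, Nlrc5 became 0.016 (at least 5000 UMIs) and -0.36 to 0.21, but -2.04 under the study limits. Psmb8 became -0.043 (no filter), -0.022 (study limits), -0.0090 (thinned) and -0.056 to 0.092 there. The causes were not tested beyond the fewer counts of thinning and the fewer samples of left-out replicates. Alternatives for cell types and the interaction, and the strict gate with 5000 UMIs, were chosen after seeing the data. Depth limits Nlrc5 and the transporter genes in single cells.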
